A study of Rattus norvegicus with 54 samples.

Results

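The 10 genes described here are the immunoproteasome subunits Psmb8, Psmb9 and Psmb10, the proteasome activator subunits Psme1 and Psme2, the class I light chain B2m, the peptide transporter subunits Tap1 and Tap2, the loading factor Tapbp and the class I transactivator Nlrc5. They are 10 of the 45785 genes and loci that carry a name in the deposited count table of rat nucleus accumbens. They were picked by symbol after several of them had differed with age in control animals of this same series, so that contrast is given below as a description only. All 10 passed the filter on low counts in each fit.

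The tissue came from Long Evans rats, an outbred strain, and was profiled as bulk RNA in 54 libraries. Prenatal ethanol (PAE) or a free-choice liquid diet (FCL) was followed in adolescence by water (VEH) or by adolescent alcohol (AAE). Groups at postnatal day 42 (P42), collected 24 h after the last adolescent exposure, were FCL-VEH males (n = 9) and females (n = 7) and PAE-VEH males (n = 9) and females (n = 4). Groups at P90, in adults given no challenge, were FCL-VEH males (n = 6) and females (n = 8) and PAE-AAE males (n = 6) and females (n = 5). FCL-VEH is called control, and the PAE groups of either age are called exposed. At P90 both exposures were combined, so their effects cannot be told apart, and in the exposed groups age and adolescent alcohol cannot be told apart either. The labels give no litter and do not state that each library is a separate animal, so p-values measure the spread between libraries, which may in part be technical. The pair-fed group was not analysed here.

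Depth was 59.1 to 103.8 M counts. Spiny neuron markers were abundant, with a median over 12 genes of 308 CPM (counts scaled to the size of the library), and 12 of 14 T, NK and B cell markers had a mean below 0.1 CPM. In 3 P42 libraries the sex markers went against the label (female control 5, male control 8 and male PAE-VEH 5). At P90 the female marker Xist stood at 53.3 CPM in male control 6 and at 30.8 CPM in male PAE-AAE 5. The next highest male was male control 4 at 9.01 CPM. Both had Y-linked transcripts as labelled (186.3 and 203.5 CPM), and the source of the Xist signal was not tested. Choroid plexus markers summed to between 19.1 and 3840.5 CPM, and 6 libraries stood apart by their choroid plexus or cortical markers (at P42 female control 7, male control 5 and male PAE-VEH 6; at P90 male control 4 and 6 and male PAE-AAE 6). Calls without these 6 libraries are given beside some results, but not beside every call from a fit that holds them. In bulk tissue, fewer cells of a type and less RNA per cell cannot be told apart.

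The proteasome degrades cytosolic proteins to peptides. Interferons exchange its constitutive catalytic subunits Psmb6, Psmb7 and Psmb5 for Psmb9, Psmb10 and Psmb8, which gives the immunoproteasome, and Psme1 with Psme2 forms a cap that opens it. Tap1 and Tap2 carry the peptides into the endoplasmic reticulum, where Tapbp (tapasin) holds the transporter next to an empty class I molecule, made of a heavy chain and B2m. Nlrc5 switches on the class I genes through their promoters. In brain this pathway is known to be low at rest, strongest in microglia and endothelium, and inducible by interferon.

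Of these genes, 5 lie on chromosome 20 in the rat major histocompatibility region (positions of the deposited table, equal to GRCr8). Tap2 (4638257 to 4652296, minus strand), Psmb8 (4654068 to 4657049, minus), Tap1 (4658171 to 4668543, minus) and Psmb9 (4668952 to 4674421, plus) stand side by side with gaps of 1771, 1121 and 408 bases. Tapbp (4958821 to 4967958, minus) lies 284399 bases further along. Psme1 (33038962 to 33041849, plus) and Psme2 (33048452 to 33053055, minus) are neighbours on chromosome 15, 6602 bases apart. Nlrc5 (10483601 to 10587223, minus) and Psmb10 (50740808 to 50743292, minus) are on chromosome 19, and B2m (129549236 to 129555354, plus) is on chromosome 3. The libraries were not strand-specific, so the reads of Nlrc5 could include those of 2 overlapping loci on the opposite strand (403 and 4899 shared bases), and those of Psme1 could include Emc9 over 10 bases. Copies of Psme1 and Psme2 elsewhere in the genome held little signal, at most 0.386 CPM on average for Psme1-ps1.

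The interferon-stimulated response element is a DNA motif bound by interferon regulatory factors. Its core was searched on both strands as GAAA, any 2 bases and GAAA again. It occurred in the promoter windows of 7 of the 9 members for which RefSeq (GRCr8) gives one. Over all 33469 windows (250 bases before to 50 after the start) it occurred in 3.92%. Nlrc5 has no window there. The start that a window uses can lie inside the gene span given above. The cores of Psmb8, Psme2 and Tapbp lie within those spans, so by these spans they are not upstream of the gene. The matches are shown because they occur in members that stand on 4 chromosomes. The search fixed every letter of the core but the 2 in the middle, so the likeness of the cores otherwise follows from the search. Capitals mark the core, and the strand is that of the printed letters. Tapbp has a second core that overlaps the printed stretch.
B2m, chr3:129549170-129549199, plus strand: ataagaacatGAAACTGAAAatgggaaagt
Psmb10, chr19:50743290-50743319, minus strand: agtggggggtGAAAGCGAAAgtaggaagcg
Psmb10, chr19:50743346-50743375, minus strand: aagcaaaggcGAAAGTGAAAgagaagatgc
Psmb8, chr20:4657016-4657045, plus strand: acaaggaagtGAAAGCGAAAgccacagcac
Psme2, chr15:33052785-33052814, minus strand: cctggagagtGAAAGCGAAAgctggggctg
Tap1, chr20:4668645-4668674, plus strand: agaggaagaaGAAACCGAAAgcagccaccg
Tap2, chr20:4652318-4652347, minus strand: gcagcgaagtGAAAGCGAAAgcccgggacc
Tapbp, chr20:4967878-4967907, minus strand: gagggaaaatGAAAGTGAAAggaaacagac

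The same 10 letters were found in Tap2, Psmb8, Psme2 and Psmb10, in Psmb8 on the strand opposite to the gene. B2m, Tap1, Tapbp and the other Psmb10 site differ from them within the 2 bases that the search left free. Psmb9 and Psme1 had no match in their windows. Other motifs were rarer among the members. An NF-kB core (GGGA, any 4 bases, CC) occurred in B2m, Tap1 and Tapbp (3 of 9; 19.28% of all windows), and CCAAT in B2m, Psmb8 and Psmb9 (3 of 9; 37.49%). A match describes letters and shows no binding.

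Tap1 and Psmb9 start back to back, and the sequence between them is printed because a single stretch of 408 bases lies upstream of a transporter gene and of a catalytic subunit gene. The windows are given on the strand of each gene and share 44 bases (chr20:4668750-4668793). Capitals mark the interferon element core and the NF-kB core of Tap1, both on the Tap1 side.
Tap1 upstream, chr20:4668544-4668793, minus strand: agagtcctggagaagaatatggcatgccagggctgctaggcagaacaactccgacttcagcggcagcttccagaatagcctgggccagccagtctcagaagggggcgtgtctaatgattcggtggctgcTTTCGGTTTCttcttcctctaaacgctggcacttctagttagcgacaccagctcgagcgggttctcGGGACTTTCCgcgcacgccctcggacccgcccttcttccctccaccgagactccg
Psmb9 upstream, chr20:4668750-4668951, plus strand: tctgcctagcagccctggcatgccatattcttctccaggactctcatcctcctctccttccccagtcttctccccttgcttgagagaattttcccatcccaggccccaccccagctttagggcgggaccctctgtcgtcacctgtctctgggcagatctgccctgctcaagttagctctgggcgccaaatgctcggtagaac

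To compare genes, CPM were divided by the gene length in the deposited table, which is shorter than the genomic span. On this scale B2m was the most abundant member. It stood at 81.4 ± 16.3 CPM per kb (SD over 54 libraries), beside 24.3 ± 5.75 for Psme1, 16.1 ± 2.98 for Psmb10 and 13.1 ± 2.33 for Psme2. Tapbp followed at 5.17 ± 0.849 CPM per kb, then Psmb9 at 3.20 ± 1.21, Psmb8 at 3.10 ± 1.03, Tap2 at 2.93 ± 0.732, Tap1 at 1.53 ± 0.469 and Nlrc5 at 0.293 ± 0.110. Neighbours in this order were apart by more than their SD between B2m and Psme1, between Psme2 and Tapbp, between Tap2 and Tap1, and between Tap1 and Nlrc5, each in 54 of 54 libraries. Psmb9, Psmb8 and Tap2 could not be ordered: Psmb9 was above Psmb8 in 27 of 54 libraries, and Psmb8 above Tap2 in 30. The constitutive catalytic subunits were far higher, with Psmb7 at 127.5 CPM per kb, Psmb5 at 107.6 and Psmb6 at 80.6. The nuclear activator subunit Psme3 stood at 31.7 CPM per kb, above Psme1. The class I heavy chain RT1-A2 was at 3.08 ± 1.21 CPM per kb, a level close to those of Psmb8 and Tap2, although near-identical RT1 copies make its count uncertain.

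**Figure D1:**
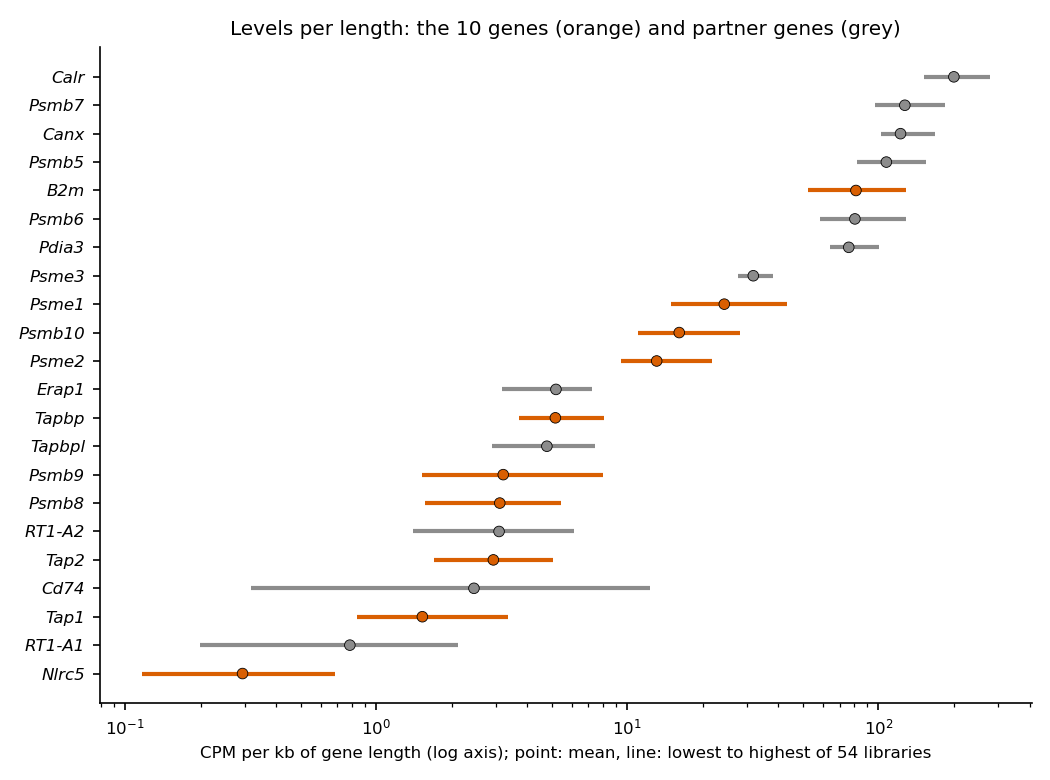
Level per gene length of the members and of partner genes over the 54 libraries, in CPM per kb on a log axis; points are means and lines run from the lowest to the highest of the libraries, orange for members and grey for partners. B2m lies highest of the members with a mean of 81.4 CPM per kb and Nlrc5 lowest with 0.293, while the constitutive subunits Psmb7 and Psmb5 exceed B2m.

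To ask whether the members differed between adolescence and adulthood outside the control contrast that led to their choice, exposed P90 libraries were compared with exposed P42 libraries. These share no library with the controls. Earlier results of these data were known when the members were chosen, so this comparison may not be fully independent of the choice. In females Psmb8 and Psme1 rose, and in males none of the 10 passed. The comparison in females called 298 of 24337 genes as risen, or 1.22%, and 231 as fallen, or 0.949%. All 10 members were higher at P90 in females, with a median log2 fold change of 0.39 against -0.0072 over all genes. The count of 10 was 9 with the choroid plexus score as a covariate. It stayed at 10 without the libraries that stand apart, but none of those is an exposed female, so that fit could hardly change it. An exposed P90 female whose choroid plexus markers summed to 3837 CPM was kept in it.

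Psmb8, the chymotrypsin-like immunosubunit, stood at 5.33, 5.23, 5.93, 5.19 and 5.54 CPM in the 5 exposed females at P90. In the 4 at P42 it stood at 2.13, 2.86, 3.34 and 2.88 CPM. Every adult library was above every adolescent library, and Psmb8 rose by 0.95 ± 0.25 on the log2 scale (SE; edgeR, adjusted p = 0.0403). The other immunosubunits differed less. Psmb9 measured 3.36, 3.91, 3.46, 3.21 and 3.06 CPM at P90 and 2.03, 2.46, 3.67 and 2.70 CPM at P42, and the groups overlapped (0.32, edgeR adjusted p = 0.709). Psmb10 measured 20.4, 17.8, 20.5, 13.5 and 17.4 CPM at P90 against 16.01, 17.1, 15.7 and 14.4 CPM at P42, also overlapping (0.18, adjusted p = 0.577).

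Psme1, the alpha subunit of the activator cap, stood at 33.1, 34.9, 37.6, 31.6 and 31.7 CPM in exposed females at P90 and at 19.8, 24.7, 25.4 and 20.5 CPM at P42. The groups did not overlap, and Psme1 rose by 0.58 ± 0.14 (edgeR, adjusted p = 0.0336). Its partner Psme2 measured 23.1, 20.9, 24.3, 15.4 and 22.9 CPM at P90 and 15.4, 14.2, 18.5 and 14.5 CPM at P42. A single adult library lay within the adolescent range, and the difference of 0.44 ± 0.14 did not pass (adjusted p = 0.0898).

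B2m, the light chain shared by class I molecules, stood at 298.6, 260.9, 268.5, 263.0 and 263.1 CPM at P90 and at 182.6, 177.1, 203.7 and 190.3 CPM at P42 in exposed females. The groups were far apart, yet the difference of 0.52 ± 0.15 did not pass (edgeR, adjusted p = 0.0706). Tapbp was likewise apart, at 14.2 to 17.2 CPM against 11.1 to 13.6 CPM (0.37 ± 0.15, adjusted p = 0.206). In all 4 members (Psmb8, Psme1, B2m, Tapbp) had every P90 library above every P42 library, as had 4.8% of all genes tested.

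The transporter subunits and the transactivator did not pass either. Tap1 measured 3.91, 4.29, 3.12, 5.26 and 4.51 CPM at P90 and 5.28, 3.12, 4.29 and 2.79 CPM at P42, with the highest library of all at P42 (0.12, edgeR adjusted p = 0.879). Tap2 ranged from 6.85 to 10.2 CPM at P90 and from 5.60 to 7.90 CPM at P42 (0.41, adjusted p = 0.353). Nlrc5 ranged from 2.09 to 4.32 CPM and from 2.15 to 2.65 CPM (0.24, adjusted p = 0.788).

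The calls in females rested on few libraries. With each of the 9 libraries left out in turn, Psmb8 passed in 0 of 9 fits (log2 0.84 to 1.05) and Psme1 in 2 of 9 (0.52 to 0.64). Psmb8 did not pass with no filter on low counts (adjusted p = 0.0613) or with the choroid plexus score as a covariate (0.86, adjusted p = 0.0857), and Psme1 did not pass with all 54 libraries in 1 fit (adjusted p = 0.0945). DESeq2 called Psmb8, Psme1, B2m and Psme2, with adjusted p of 0.00535, 0.00557, 0.0213 and 0.0329; it called 605 of 24337 genes as risen (2.49%).

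**Figure D2:**
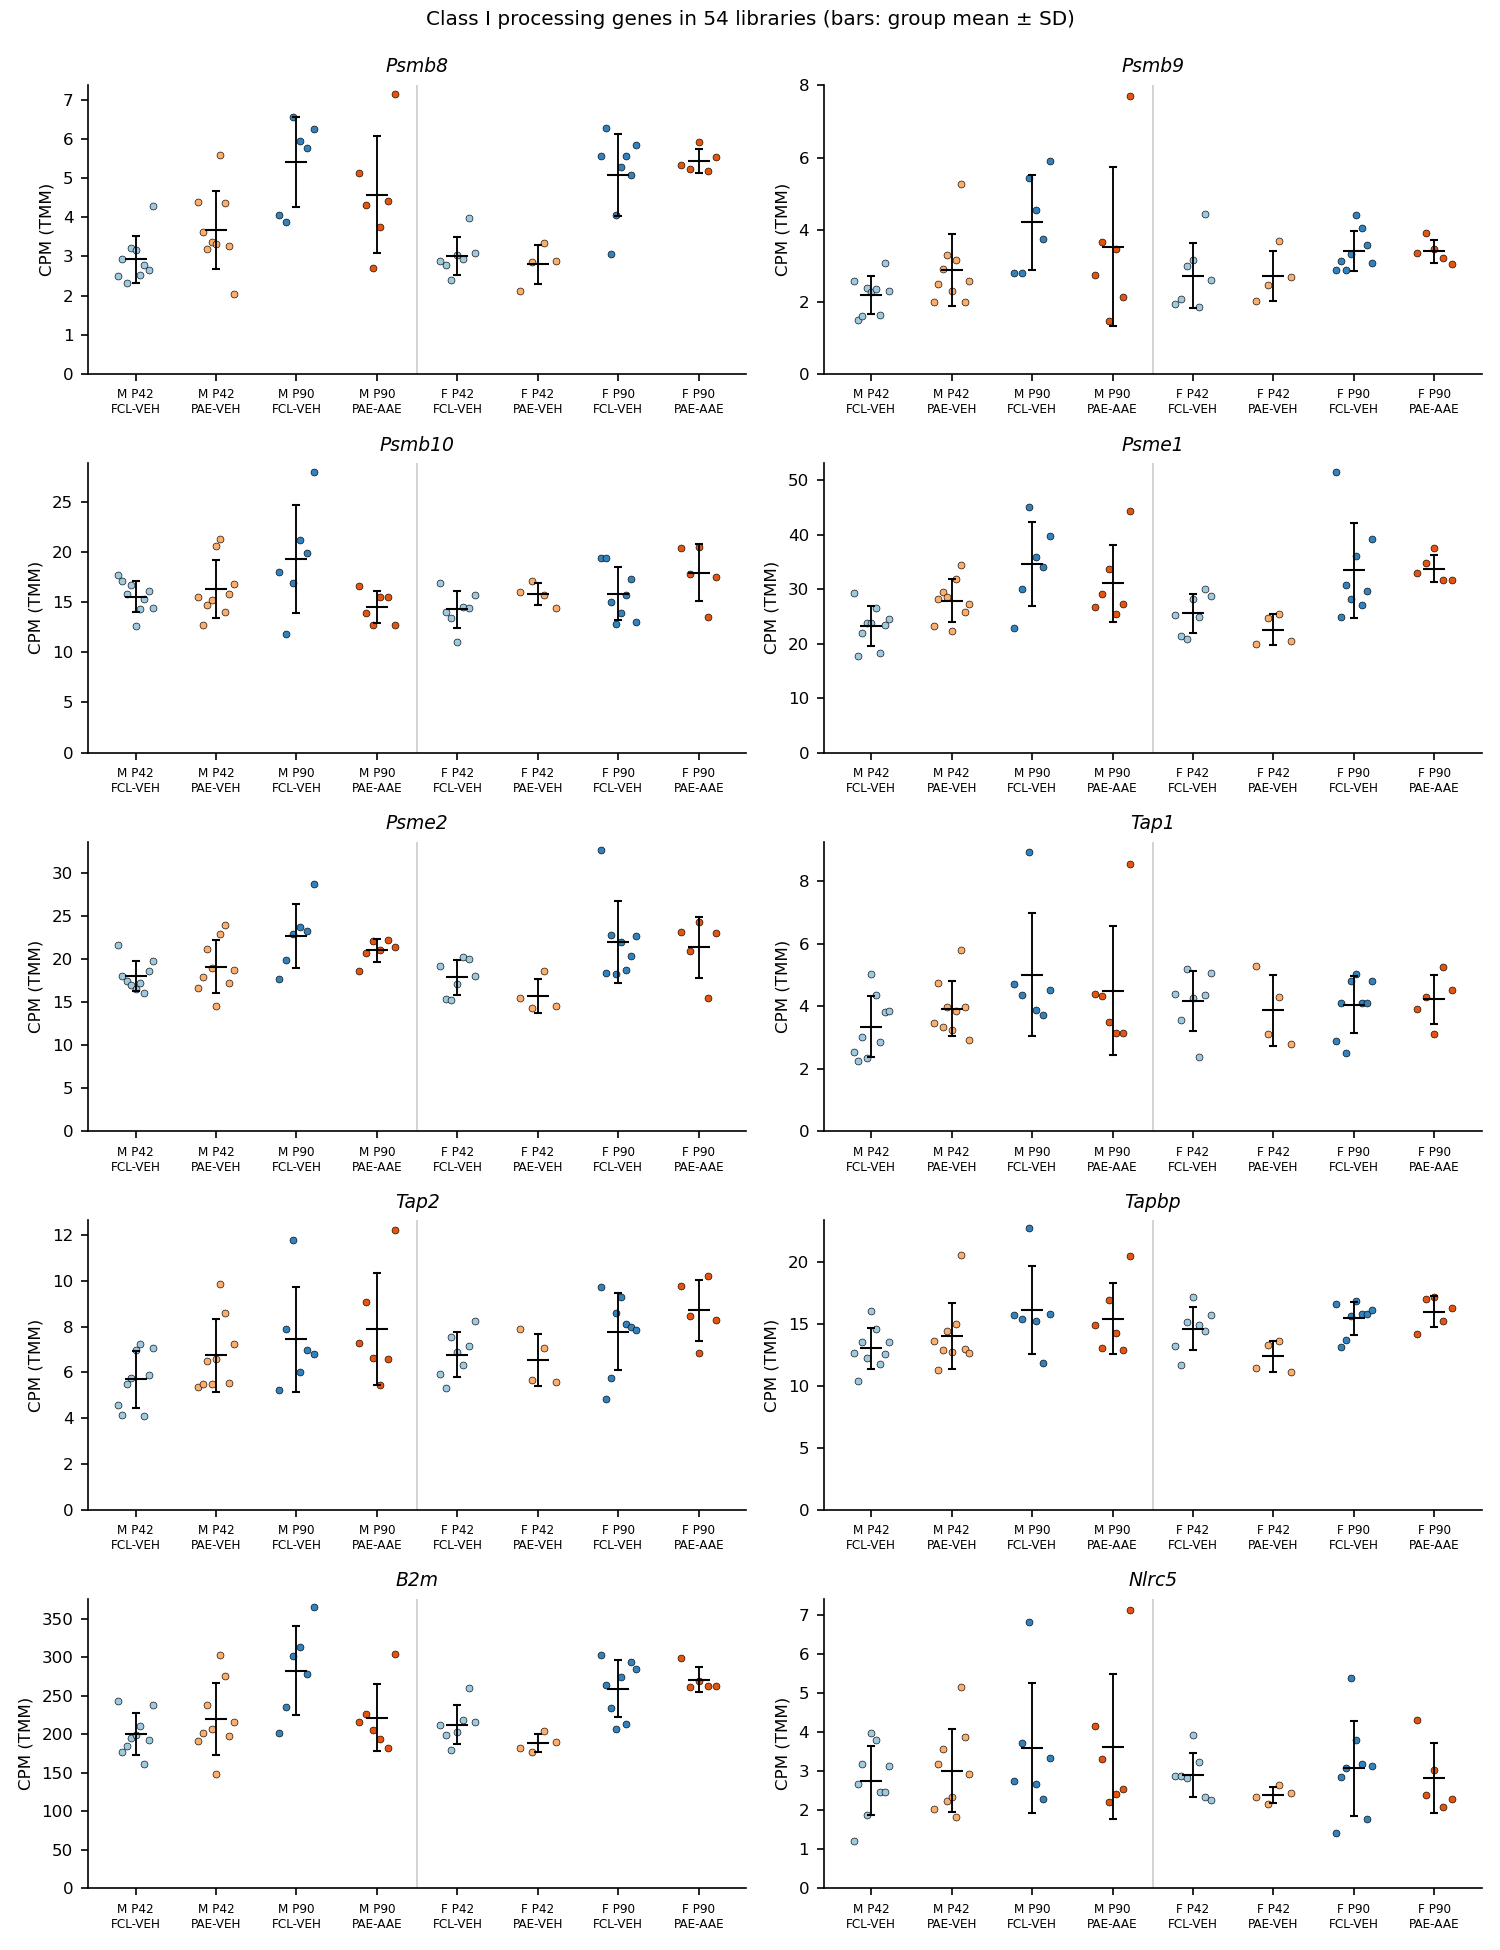
CPM of each member in every library, with TMM-scaled library sizes, by group (light, P42; dark, P90; blue, control; orange, exposed) and sex; each point is 1 library and bars are mean ± SD. Among exposed females, Psmb8 lies at 5.19 to 5.93 CPM at P90 and at 2.13 to 3.34 CPM at P42.

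In exposed males 13 of 24337 genes rose (0.0534%) and 56 fell (0.23%), and no member was among them at an adjusted p under 0.05, nor at an unadjusted p under 0.05. Psmb8 had its lowest, median and highest values at 2.70, 4.37 and 7.13 CPM at P90 (n = 6) and at 2.04, 3.37 and 5.59 CPM at P42 (n = 9). The groups overlapped widely, with a difference of 0.31 ± 0.19 (edgeR, adjusted p = 0.586). Psme1 ranged from 25.5 over a median of 28.1 to 44.3 CPM at P90, and from 22.4 over 28.2 to 34.5 CPM at P42 (0.16). B2m differed by 0.01 and Psmb10 by -0.17. In all 9 of 10 members were higher (median 0.18), but 5 of 10 without the libraries that stand apart (median 0.010). Psmb9 (0.29) and Nlrc5 (0.27) turned to -0.10 and -0.042 without male PAE-AAE replicate 6 alone. That library was the highest of its group for 8 of the 10 members.

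Averaged over the sexes, 153 genes rose (0.629%) and 130 fell (0.534%). Psmb8 (0.63 ± 0.15, edgeR adjusted p = 0.041) and Psme1 (0.37 ± 0.09, adjusted p = 0.0419) were among those that rose; in 24 fits without 1 library each, Psmb8 passed in 6 and Psme1 in 9. Neither passed with no filter on low counts, or without the libraries of discordant sex markers. The difference between the sexes was tested directly, and 449 genes passed (1.84%), with no member among them. The 3 members at an unadjusted p under 0.05 were B2m (female minus male 0.51 ± 0.19, edgeR adjusted p = 0.164), Psme1 (0.42 ± 0.18, adjusted p = 0.226) and Psmb8 (0.64 ± 0.31, adjusted p = 0.295). Over all genes tested, 16.5% had such an unadjusted p. Without the libraries that stand apart, B2m (0.55, adjusted p = 0.0286) and Psme1 (0.52, adjusted p = 0.0396) passed, in a fit that called 578 of 24054 genes higher (2.4%).

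**Figure D3:**
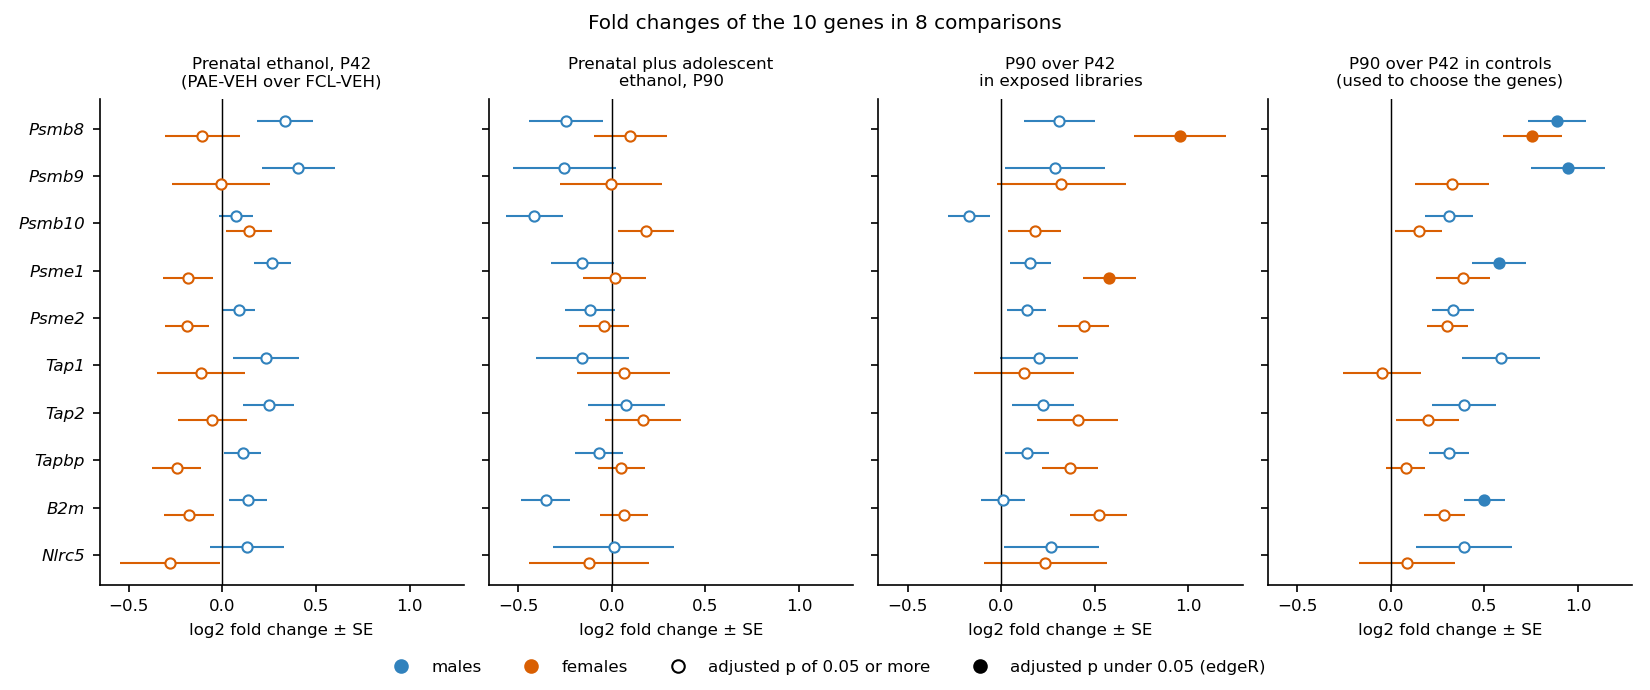
Log2 fold change of each member in the comparisons of age and of exposure by sex, with SE; filled points passed an edgeR adjusted p of 0.05. In exposed females all 10 members lie above 0, and Psmb8 (0.95) and Psme1 (0.58) are filled.

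The heavy chains are the partners of B2m, and 21 of the 26 listed could be tested. RT1-A2, a classical class I heavy chain, had its lowest, median and highest values at 6.07, 7.02 and 8.62 CPM in exposed females at P90 and at 2.64, 3.33 and 3.66 CPM at P42. The groups did not overlap and RT1-A2 rose by 1.19 ± 0.23 (edgeR, adjusted p = 0.00732), in 9 of 9 fits with a library left out. In exposed males it rose by 0.79 ± 0.17 (adjusted p = 0.0387), from 2.71, 3.76 and 5.17 to 4.85, 6.46 and 9.82 CPM, but passed in 5 of 15 such fits. No other heavy chain passed; 12 of 21 were higher in females and 14 of 21 in males. Because RT1 copies are nearly identical and the counts may be split between them, the identity of the RT1-A2 reads is uncertain.

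Other proteasome genes were mostly higher in females and lower in males. Of the 14 constitutive core subunits, 12 were higher at P90 in exposed females, and Psmb6 (0.33) and Psmb1 (0.29) rose. In exposed males all 14 were lower, none past the threshold. Of these, 11 had an unadjusted edgeR p under 0.05, as had 10.4% of all genes tested in exposed males. The difference between the sexes passed for 4 of 14 core subunits (Psmb4, 0.44; Psmb1, 0.44; Psmb6, 0.43; Psmb3, 0.37; edgeR) and for 2 of 18 regulatory particle subunits, the ATPases Psmc1 (0.38) and Psmc2 (0.30). It passed also for Psmg1 (0.44), a chaperone of proteasome assembly. The other 10 core and 16 regulatory particle subunits did not pass, and the share over all genes was the 1.84% given above. Few genes passed in this test with the choroid plexus score as a covariate (3 higher, 2 lower) and none with all 54 libraries in 1 fit. Psme3 and the 12 trimming and loading partners gave no call in either sex. Lap3, a leucine aminopeptidase, came nearest, with 0.44 in females (edgeR, adjusted p = 0.0663).

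Among the upstream genes, none of 26 interferon receptor, JAK-STAT and class I transcription factor genes passed in exposed females or males. Of 29 interferon-stimulated genes tested, 25 were higher in females (median 0.54) and 21 in males (median 0.23), and none passed in either. Bst2, which tethers enveloped virus particles to the cell, reached 1.04 in females (edgeR, adjusted p = 0.0707) and rose in the mean of the sexes (0.76 ± 0.19, adjusted p = 0.047). None of the 10 class II genes passed.

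Other cell type markers moved beside the members. In exposed females, the 10 astrocyte markers were all higher at P90 (median 0.32) and Aldoc, a glycolytic enzyme of astrocytes, rose by 0.52 ± 0.08 (edgeR, adjusted p = 0.00133). Their summed level ran from 9016 to 11423 CPM at P90 and from 6922 to 8434 CPM at P42. Microglial markers were higher for 12 of 17, with C1qb, a complement component, risen by 0.54 ± 0.12 (adjusted p = 0.0247) and a summed level of 508 to 647 CPM against 403 to 553 CPM. All 10 choroid plexus markers were higher (median 1.44, none past the threshold), with summed levels of 40.9 to 3837 CPM against 59.7 to 629 CPM. The 12 spiny neuron markers were all lower (median -0.35, none past the threshold), with a summed level of 5423 to 7735 CPM against 7209 to 9890 CPM. The summed level of the 10 endothelial markers ran from 143.8 to 206.2 CPM at P90 and from 162.0 to 252.6 CPM at P42. In exposed males, 3 of 10 astrocyte and 6 of 17 microglial markers were higher and 8 of 12 spiny neuron markers lower. Their endothelial markers summed to 167.0 to 281.5 CPM at P90 and to 130.2 to 244.2 CPM at P42. The part of these cells in the members' differences was not tested beyond the choroid plexus covariate.

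Age in controls is the contrast that led to the members and is given as a description. In control males 465 of 24065 genes rose (1.93%) and 145 fell (0.603%). All 10 members were higher at P90, with a median of 0.45, and Psmb8 (0.89 ± 0.16), Psmb9 (0.95 ± 0.20), Psme1 (0.58 ± 0.14) and B2m (0.50 ± 0.11) were past the threshold of edgeR. Psmb8 went from 2.31, 2.78 and 4.29 CPM (lowest, median, highest of 9) to 3.87, 5.85 and 6.55 CPM (of 6), so the groups met only at the edges. Psmb9 went from 1.48, 2.31 and 3.08 to 2.80, 4.14 and 5.91 CPM. B2m went from 161.3, 195.1 and 242.9 to 201.2, 289.9 and 364.7 CPM. The members not past the threshold were Tap1 (0.59), Tap2 (0.39), Nlrc5 (0.39), Psme2 (0.33), Psmb10 (0.31) and Tapbp (0.31). No member was past it with the choroid plexus score as a covariate (Psmb8 0.77, adjusted p = 0.0643) or without the libraries that stand apart (Psmb8 0.81, adjusted p = 0.0954), and the count was 1 without male control replicate 6 and 2 without replicate 4 at P90. In the same males all 10 choroid plexus markers were higher (median 1.01), and the complement genes C1qa, C1qb and C1qc, RT1-A2 and RT1-CE5 were past the threshold too (RT1-A2 at 0.61 with an edgeR adjusted p = 0.372 without the libraries that stand apart).

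In control females 54 genes rose (0.224%) and 47 fell (0.195%), and Psmb8 alone of the members was past the threshold (0.76 ± 0.16, edgeR adjusted p = 0.0184). Its values were 2.39, 2.94 and 3.97 CPM at P42 (lowest, median, highest of 7) and 3.06, 5.42 and 6.27 CPM at P90 (of 8). Psme1 (0.39), Psmb9 (0.33), Psme2 (0.30) and B2m (0.29) were higher and Tap1 was at -0.04, none past the threshold. Psmb8 was not past the threshold without the P42 libraries that are of discordant sex by their markers (0.75, adjusted p = 0.0584), or without female control replicate 3 at P42 (0.71, adjusted p = 0.0567).

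To ask whether prenatal ethanol alone altered the pathway in adolescence, PAE-VEH was compared with control libraries at P42, which also entered the age contrast above. The members had been low in those control libraries when they were chosen, so higher values in the exposed groups are not independent of that choice. No gene passed in edgeR in males, in females, in their mean or in their difference (0 of 24741, 0.0%), while 2217 genes in males and 2786 in females had an unadjusted p under 0.05. DESeq2 called 17 genes higher and 7 lower in males and 45 higher and 41 lower in females, and voom called 1 gene in males and 28 higher and 8 lower in females, with no member among any of these. In males all 10 members were higher with prenatal ethanol (median 0.19). Psme1 had its lowest, median and highest values at 22.4, 28.2 and 34.5 CPM in PAE-VEH males (n = 9) and at 17.7, 23.8 and 29.4 CPM in controls (n = 9). The groups overlapped, with 7 of 9 exposed libraries above the control median (0.27 ± 0.10, edgeR adjusted p = 0.459). Psmb9 (0.41 ± 0.20, adjusted p = 0.552) and Psmb8 (0.33 ± 0.15, adjusted p = 0.519) were the other members at an unadjusted p under 0.05. Astrocyte markers stood beside them, with 9 of 10 higher.

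In females 9 of 10 members were lower with prenatal ethanol (median -0.15), none at an unadjusted p under 0.05. B2m stood at 182.6, 177.1, 203.7 and 190.3 CPM in the 4 PAE-VEH females, all below the control median of 212.2 CPM but within the control range of 178.9 to 260.0 CPM apart from the lowest (-0.18, edgeR adjusted p = 0.629). Tapbp (-0.24) and Nlrc5 (-0.28) were also below the control median in 4 of 4, and Psmb10 alone was higher (0.14). Interferon-stimulated genes ran the same way, 22 of 29 lower in females and 23 of 29 higher in males, and all 10 choroid plexus markers were lower in females (median -1.13). The difference between the sexes was below 0 for 9 of 10 members and was -0.45 ± 0.17 for Psme1 (adjusted p = 0.351) and -0.35 ± 0.16 for Tapbp (adjusted p = 0.449).

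At P90 the prenatal plus adolescent exposure was compared with control adults, the libraries in which the members had been high when they were chosen, so lower values in the exposed groups are not independent of that choice. No gene passed in males or in females (0 of 24018, 0.0%), with 2100 and 1015 genes at an unadjusted p under 0.05, and no gene passed in the difference of the sexes. DESeq2 called 2 genes lower in males and 3 higher and 5 lower in females, none a member. In their mean 1 gene fell (0.00416%), which was no member. Psmb10 measured 12.7, 14.7 and 16.6 CPM (lowest, median, highest) in PAE-AAE males and 11.8, 18.9 and 28.0 CPM in control males, with 6 of 6 exposed libraries below the control median (-0.41 ± 0.15, edgeR adjusted p = 0.552). Without male control replicate 6 that difference was -0.28, and without the libraries that stand apart -0.18. B2m measured 182.7, 210.5 and 304.5 CPM against 201.2, 289.9 and 364.7 CPM (-0.35 ± 0.13, adjusted p = 0.552), and -0.16 with the choroid plexus score as a covariate. In all 8 of 10 members were lower in males (median -0.16), whereas with that covariate 7 of 10 were higher and without the libraries that stand apart 10 of 10 were lower. All 14 core subunits and 16 of 17 microglial markers were lower as well, none past the threshold.

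In females at P90, 7 of 10 members were higher (median 0.058) and with the covariate 3 of 10. Psmb8 measured 5.19, 5.33 and 5.93 CPM in PAE-AAE females and 3.06, 5.42 and 6.27 CPM in controls (0.10), and Psme1 measured 31.6, 33.1 and 37.6 CPM against 24.9, 30.2 and 51.5 CPM (0.01). The exposed females lay within the range of the controls for both. The difference between the sexes was 0.60 ± 0.21 for Psmb10 (edgeR, adjusted p = 0.423) and 0.42 ± 0.18 for B2m (adjusted p = 0.434).

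Sex was compared within controls of each age, again in libraries used in the choice. At P42 no gene passed (0 of 24065, 0.0%), and 8 of 10 members were higher in females, led by Tap1 (0.32) and Psmb9 (0.32), none at an unadjusted p under 0.05. DESeq2 called 5 genes higher and 2 lower there, and edgeR without the libraries of discordant sex markers called 6 higher and 7 lower, none a member. At P90, 12 genes passed (0.0499%), none a member, and 9 of 10 members were lower in females. Psmb10 was at -0.28 ± 0.13 (unadjusted p = 0.0368, edgeR adjusted p = 0.818). With the choroid plexus score as a covariate 5 of 10 were lower at P90.

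The immunosubunits replace particular constitutive subunits, so their ratio to that partner per gene length was followed. Psmb8 reached 3.48%, 3.42%, 4.09%, 3.32% and 3.20% of Psmb5 in exposed females at P90, and 1.61%, 1.99%, 2.38% and 2.11% at P42. The groups did not overlap (geometric means 3.49% and 2.002%). The exact two-sided permutation p was 0.0159, the smallest that 5 against 4 libraries allow, and 0.158 when adjusted over 18 ratio tests. In exposed males the geometric means were 3.40% and 2.43%, with 5 of 6 adult libraries above the adolescent median (exact permutation p = 0.0176, adjusted 0.158). There the partner was lower at P90, with a median Psmb5 of 81.7 CPM against 92.2 CPM at P42, and Psmb8 itself did not pass. The male ratio is therefore not a measure of Psmb8 alone. Its highest adult value, 4.80%, was in male PAE-AAE replicate 6, which is among the libraries that stand apart, and the test was not repeated without it. Between exposed and control females at P90 the geometric means were 3.49% and 3.42% (exact permutation p = 0.954). Psmb9 stood at 3.83% of Psmb6 in exposed females at P90 and 3.76% at P42 (exact permutation p = 0.81), and Psmb10 at 12.9% of Psmb7 at both ages (exact permutation p = 0.984).

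**Figure D4:**
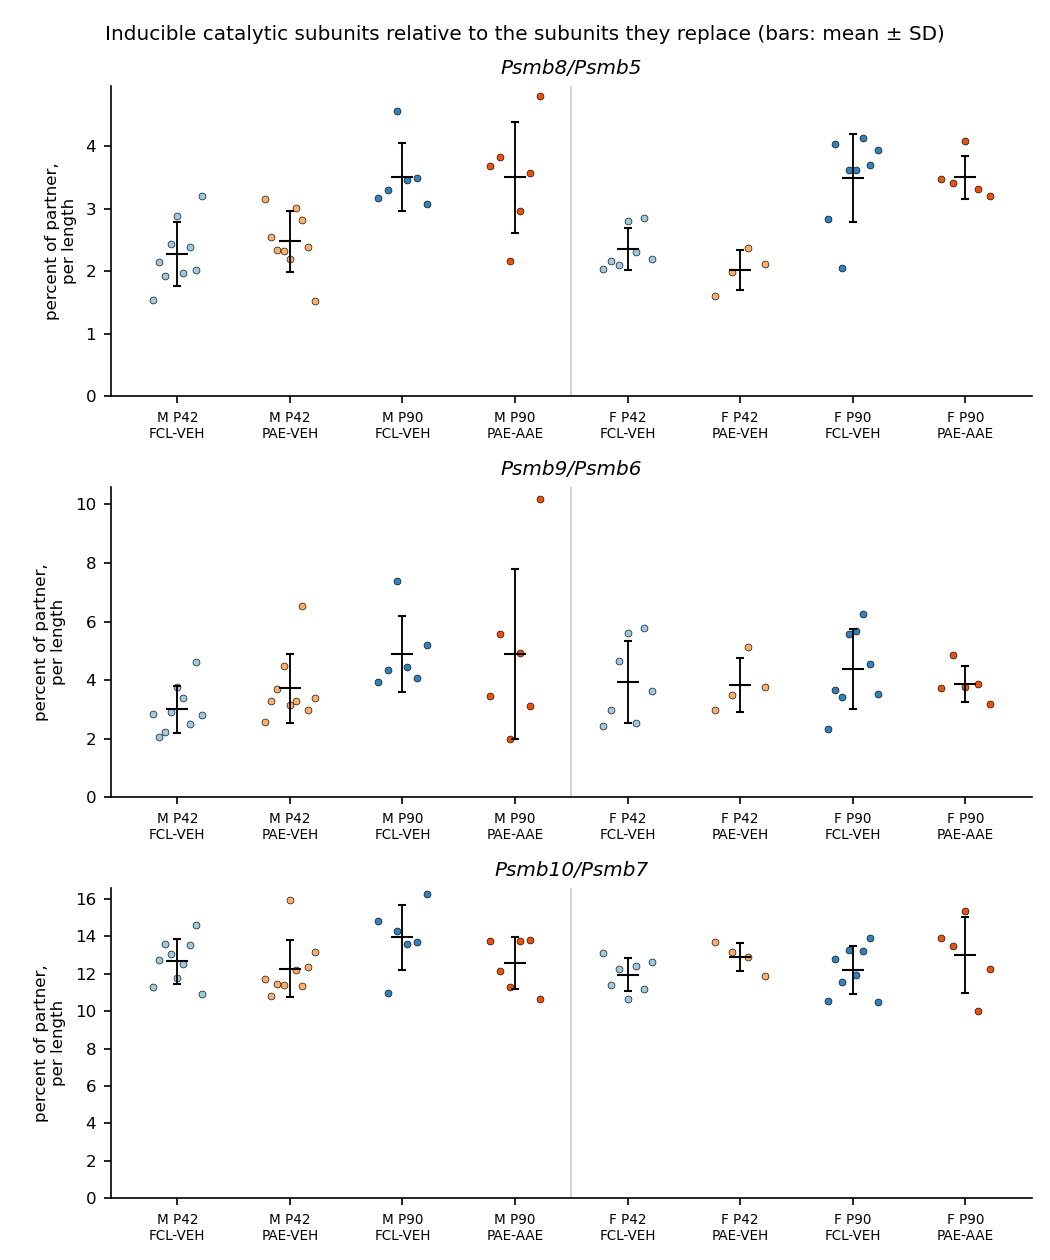
Immunosubunit level as a percentage of its constitutive partner, per gene length, by group; each point is 1 library and bars are mean ± SD. Psmb8 over Psmb5 lies at 3.20% to 4.09% in exposed females at P90 and at 1.61% to 2.38% at P42, while Psmb10 over Psmb7 has group means between 11.9% and 13.9%.

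Within groups, most members varied together, Psmb10 least. Correlations were taken over the 54 libraries after subtracting the 8 group means and are descriptions, since libraries share depth, scaling and cell content. Of 45 pairs, 39 were positive and 16 above 0.5. The highest values joined the activator subunits and the light chain, with r of 0.76 for Psme1 and B2m, 0.71 for Psme1 and Psme2 and 0.70 for Psme2 and B2m. The transporter and loading genes had 0.64 for Tap1 and Tap2, 0.61 for Tap2 and Tapbp and 0.56 for Tap1 and Nlrc5, but 0.38 for Tap2 and Nlrc5. Links across these genes were as strong, with 0.59 for Psme1 and Tapbp and 0.57 for Psme1 and Tap2. The chromosome 20 neighbours Psmb8 and Psmb9 correlated at 0.54. Psmb10 had negative values, at -0.38 with Tap1 and -0.42 with Nlrc5.

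**Figure D5:**
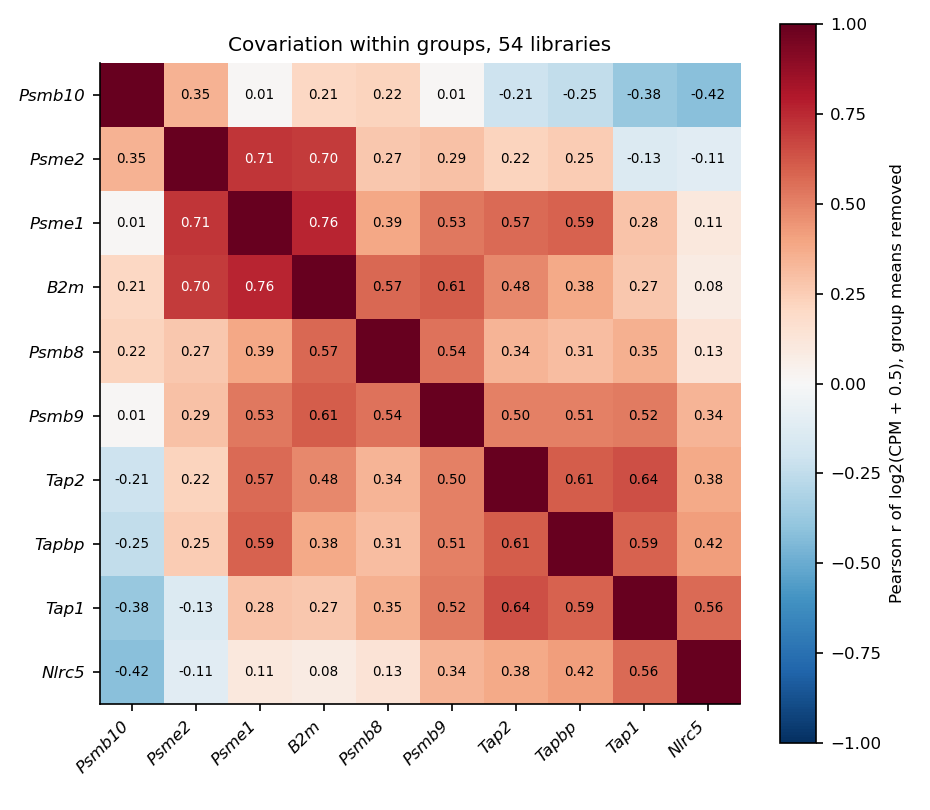
Pearson r between members over 54 libraries after subtraction of the group means. Psme1, Psme2 and B2m are correlated at 0.70 to 0.76, and Psmb10 has negative r with Tap1 (-0.38) and Nlrc5 (-0.42).

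Psmb10 followed the standard proteasome, with r of 0.75 to the regulatory particle score and 0.69 to the constitutive core score. It was not alone in this. The r to the core score was 0.66 for Psme2, 0.64 for B2m and 0.50 for Psme1, but -0.26 for Tap1 and -0.42 for Nlrc5. Nlrc5 had an r of -0.56 to the regulatory particle and 0.69 to the ependymal cilia score. The score of the 10 members had an r of 0.73 with the interferon-stimulated genes and 0.63 with choroid plexus markers. Its r was 0.57 with astrocyte, 0.25 with microglial and -0.25 with endothelial markers. It had an r of -0.16 with spiny neuron markers (Psme1 alone -0.57), 0.44 with ependymal cilia and 0.38 with the listed class I heavy chains as a whole. B2m reached 0.76 with the astrocyte score, and Tap1 0.72 with the interferon-stimulated genes. Of 14451 genes ranked, those most like the member score were Trim56 (0.87), a ubiquitin ligase of antiviral signalling, Pttg1ip (0.84), the proteoglycan Sdc4 (0.83), the kinase Nek9 (0.83), the class I gene RT1-CE5 (0.83), the astrocyte membrane protein Mlc1 (0.82), the transcriptional coactivator Yap1 (0.82) and Clic1 (0.82).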

How the data were processed

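Bulk RNA was sequenced in 54 libraries, grouped by the sample titles; replicates were numbered in accession order. The authors deposited raw read counts per gene for all libraries in 1 table, with 54 FPKM columns that were not used. The submitters' processing notes name fastp and HISAT2 2.0.5; counter, annotation and build: not given in the sources used here, although 45780 of 45785 named IDs have the same span in GRCr8. Per the labels, libraries were unstranded and RNA integrity numbers lay above 6.3 except for a value of 5.8 (mean 7.2). The 720 rows without a gene name took 0.271% to 0.412% of counts and stayed out. Depth was 59.1 to 103.8 M counts (median 72.5 M), which speaks for counting error only.

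The 4 fits (29 libraries at P42, 25 at P90, 24 exposed, 30 control) had 4 group means each and were made with edgeR 4.0.16 in R 4.3.3: TMM, the default filter by group, two-sided quasi-likelihood F tests, Benjamini-Hochberg adjustment over all genes, threshold 0.05. Higher and lower refer to the sign of the log2 fold change; rose and fell are used past the threshold. CPM shown use TMM over all 54 libraries. Scores average gene-centred log2(CPM + 0.5) over list genes with a mean of at least 0.1 CPM. Ratios were tested by exact permutation, adjusted over 18 tests. The script was tested on simulated data.

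All members are named; of each gene list up to 4 genes past the threshold with the largest change, or up to 2 with the smallest p, and the 8 genes most like the member score. An item that the rule names is not reported here. Genes outside that rule (Psme3, Emc9, Psme1-ps1 and the partners of the level and ratio comparisons) were named after their values were seen. Members and lists were chosen with earlier results of these data known. Alternatives were RLE size factors, no filter, DESeq2 1.42.0 and voom with quality weights (limma 3.58.1), all libraries in 1 fit, a fit without the 3 libraries of discordant sex markers, and leaving out each library (83 fits). Chosen after seeing the data were leaving out the 6 libraries that stand apart (choroid plexus score above 2 or cortical score above 3) and a choroid plexus score as a covariate. Promoter windows are from RefSeq, GRCr8.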

Additional observations from a re-analysis of the deposited data

Results flagged for a closer look

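In each group the highest and the lowest library was set against the others for each member, and 11 of 80 sets of values held a library far from the rest. Chance gives about 1 in 20 where sets are independent and values normally distributed. The members share libraries and the rule was applied to CPM without a log, so that rate need not hold here. All 11 were the highest of their group. Male PAE-AAE replicate 6 at P90 stood out for Psmb9 (7.71 CPM), B2m (304.5 CPM) and Tap1 (8.54 CPM), and male control replicate 3 at P90 for Tap1 (8.94 CPM), Tapbp (22.7 CPM) and Nlrc5 (6.81 CPM). Male PAE-VEH replicate 7 at P42 stood out for Psmb9 (5.27 CPM) and Tapbp (20.5 CPM). The others were Psmb8 in male control replicate 9 at P42 (4.29 CPM), Psme2 in female control replicate 1 at P90 (32.6 CPM) and B2m in female PAE-AAE replicate 1 at P90 (298.6 CPM). Of these libraries, male PAE-AAE replicate 6 is also among the 6 that stand apart by their choroid plexus or cortical markers. The part of those markers in the high values was not tested.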

How the results depend on the processing

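No member passed in any comparison of exposure, or of sex within controls, under any alternative run; at P42 single libraries were left out of the group of 4 only. In exposed females, where 2 members passed, 4 passed with DESeq2 and with voom (605 higher and 587 lower over all genes, and 881 and 916, against 298 and 231) and 1 with all 54 libraries in 1 fit, with no filter or with the choroid plexus covariate; leaving out 1 library gave 0 to 2. For the mean of the sexes, again 2, it was 4 with voom, 1 with all libraries in 1 fit or with the covariate, 0 with no filter or without the libraries of discordant sex markers, and 0 to 2 with 1 library out. The difference of the sexes, at 0, gave 2 with voom (780 higher and 1158 lower over all genes) and 2 without the libraries that stand apart (578 and 828, against 178 and 271), and 0 to 2 with 1 library out (2 without male PAE-AAE replicate 6). In controls the 4 members of males became 0 with the covariate and 0 without the libraries that stand apart (1 to 5 with 1 library out), and the 1 of females became 0 without the libraries of discordant sex markers (0 to 1).

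Values that lay more than 1 SE from 0 and changed sign were, in exposed males, Psmb9 (-0.10 to 0.44 with 1 library out, -0.086 without the libraries that stand apart) and Nlrc5 (-0.042 to 0.40 and -0.11), each lowest without male PAE-AAE replicate 6. Without the libraries that stand apart, B2m turned to 0.030 for sex at P90 and Psmb10 to 0.0020 for the mean exposure effect at P90. Counting also values closer to 0, signs changed for 24 of 160 values with the covariate and 20 without the libraries that stand apart, 4 with voom, 3 of 120 without the libraries of discordant sex markers, and none with RLE size factors, DESeq2, no filter or all libraries in 1 fit. The cause was not tested. No paired analysis was possible because the labels give no replicate numbers shared between groups.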
